A study of Mus musculus with 12 samples.

Results

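The genes described here encode the enzymes that hydroxylate collagen chains inside the cell and the enzymes that cross-link collagen and elastin outside it. They are 10 genes: the lysyl oxidases Lox, Loxl1, Loxl2 and Loxl3, the prolyl hydroxylases P4ha1, P4ha2 and P3h2, and the lysyl hydroxylases Plod1, Plod2 and Plod3. They were chosen by symbol, and each gene is represented by the probe set annotated to it alone that had the highest mean over all arrays. This gave 9 of the 10 genes among 10435 genes tested. Both probe sets of Loxl2 are annotated to a second gene as well, so Loxl2 was not analysed here.

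Expression was measured in left ventricular myocardium of male C57BL/6 mice with 1 array per mouse and 3 mice in each of 4 groups, which limits the precision of every difference. In the AB group the aorta was banded at 7 weeks of age, which loads the left ventricle, and the heart was taken 4 weeks later. Its control, sAB, had a sham procedure over the same time. The DB3 group was banded for 4 weeks, the band was then removed, and the heart was taken 3 days after this debanding. Its control, sDB3, is labelled as a sham procedure with a subsequent debanding, and was also taken at 3 days. The sources used here name no transgene or drug, and nothing says that animals were pooled.

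Collagen chains are modified in the endoplasmic reticulum before they fold into a triple helix. Prolyl hydroxylases add hydroxyl groups to prolines, some of which stabilise the helix, and lysyl hydroxylases modify lysines that later carry sugars or take part in cross-links. After secretion, lysyl oxidases, which need copper, oxidise lysines and hydroxylysines so that neighbouring collagen or elastin molecules become joined covalently. In a pressure-overloaded ventricle these steps belong to the deposition of matrix around cardiomyocytes and vessels.

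The arrays carried the labelled tissue's transcripts: 10 of 10 ventricular cardiomyocyte markers were tested, with a summed log2 signal of 18.75 to 18.92 over the 12 arrays. The sAB arrays stood apart on BioC, a bacterial control transcript added to the sample, at 10.15 to 10.51 (log2), against 8.28 to 8.60 on the other arrays. For comparisons with sAB, array handling and group therefore cannot be told apart. For this reason AB is also given against sDB3, which has the BioC level of AB, although its mice had a second operation and 3 more days. RNA integrity was read from Actb, whose 3' probe set exceeded its 5' probe set by 1.025 to 1.133 on AB arrays, below both sAB (1.199 to 1.258) and sDB3 arrays (1.201 to 1.253). The same difference for Gapdh was 0.028 to 0.034 on AB arrays, within the ranges of sAB (-0.046 to 0.050) and sDB3 arrays (-0.062 to 0.039). The part of the Actb difference in the AB results was not tested. In a piece of tissue, fewer cells of a type and less RNA per cell cannot be told apart.

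After 4 weeks of banding the lysyl oxidases Loxl1 and Loxl3 and the hydroxylases P4ha1, P3h2, Plod2 and Plod3 were higher than in the sham. In AB against sAB, 6 of the 9 genes passed (limma, Benjamini-Hochberg adjusted p under 0.05 over all genes tested), all 6 higher, where 12% of all genes tested passed as higher and 19.7% in either direction. The rises ran from 1.30-fold for Plod2 to 2.18-fold for P3h2. The median log2 difference of the 9 genes was 0.57, against 0.01 for all genes. The AB and sAB arrays did not overlap for 8 of the 9 genes, a separation in the higher direction that 23.1% of all genes showed. Without AB replicate 3, 3 of the 9 passed. All 9 differences were positive, also after quantile normalization and median centring.

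With sDB3 in place of sAB, 5 of the 9 genes passed, all higher in AB: Loxl1, Loxl3, P4ha1, P4ha2 and P3h2. Of all genes, 17.3% passed as higher and 22% in either direction. Markers of several cell types were higher in the same comparison, 4 of 12 for fibroblasts and 7 of 12 for endothelial cells. So were 3 of 10 for smooth muscle cells and pericytes and 1 of 11 for macrophages. The part of these cell types was not tested. The median log2 difference of the 9 genes was 0.86, where all genes had 0.11. AB and sDB3 did not overlap for 7 of the 9, a separation in the higher direction that 32.5% of all genes showed. Without AB replicate 3, 3 of the 9 passed. After median centring 4 of them passed and P4ha2 did not (0.28, adjusted p = 0.0899). Its adjusted p ran from 0.00615 to 0.0899 over the alternative settings. The comparisons with sAB and with sDB3 share the AB arrays, and their values are set side by side for each gene below. Plod2 and Plod3 passed against sAB only, but the difference between sDB3 and sAB did not pass for either gene (adjusted p = 0.0547 and 0.162).

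**Figure D1:**
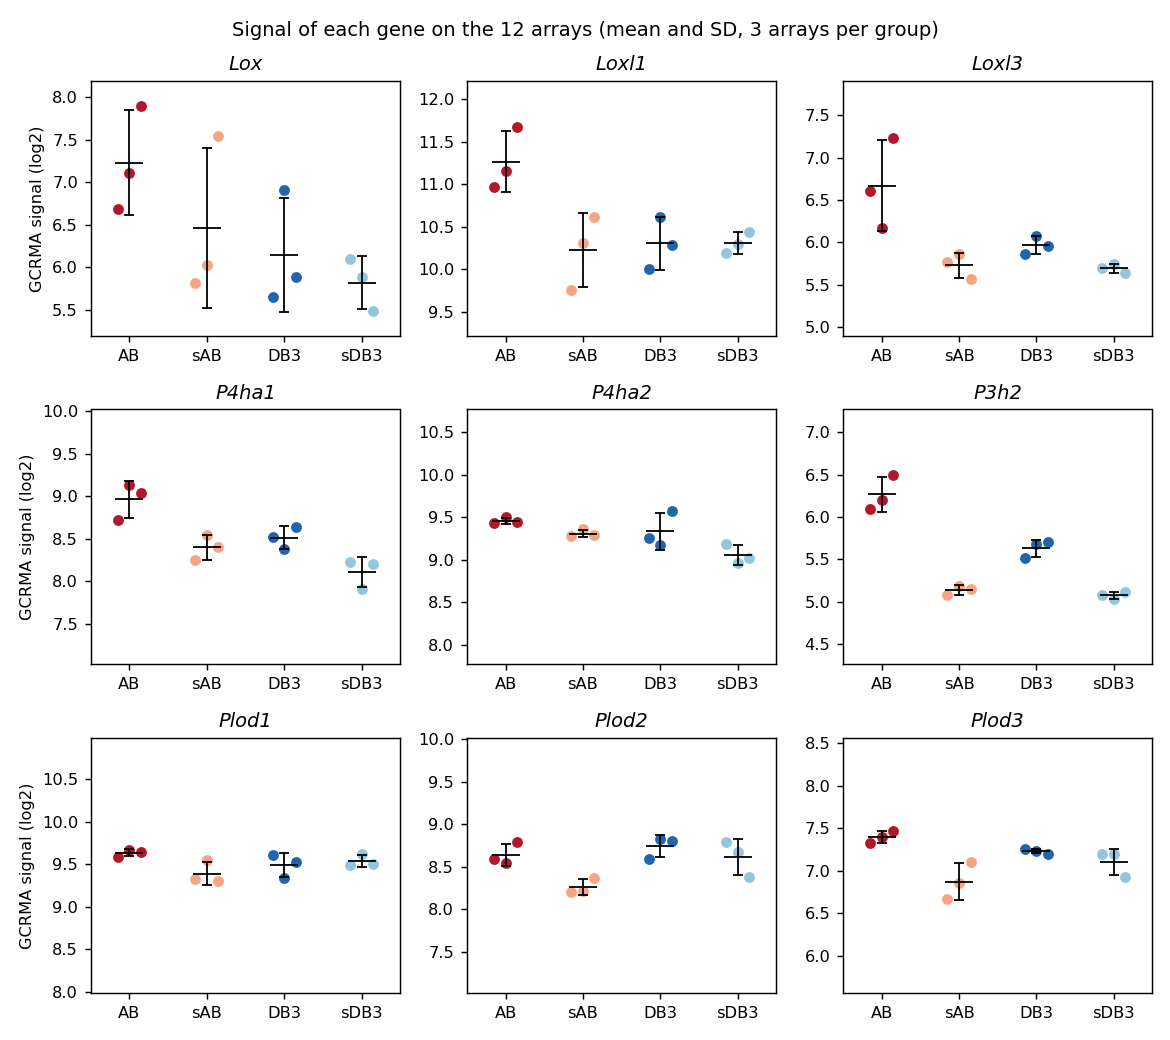
GCRMA signal (log2) on the y axis for each of the 9 genes, with the groups AB, sAB, DB3 and sDB3 on the x axis. Points are single arrays, and bars are the mean and SD of 3 arrays. Every panel spans 3 log2 units around the middle of that gene's range. P3h2 shows 3 separate levels, with AB highest, DB3 next and both shams lowest, while the lysyl hydroxylases in the bottom row each stay within 1 log2 unit.

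Loxl1, the lysyl oxidase relative known for its work on elastin, had log2 signals of 10.97, 11.16 and 11.67 on AB arrays, against 9.76, 10.31 and 10.61 on sAB arrays. Its signals were 10, 10.62 and 10.29 in DB3, against 10.19, 10.30 and 10.44 in sDB3. Every AB array lay above the other 9, and the other 3 groups overlapped. The gene was 2.06-fold higher in AB than in sAB (log2 difference 1.04 ± 0.236, SE, n = 3 arrays each, with a limma adjusted p = 0.012) and 1.94-fold higher than in sDB3 (0.96 ± 0.236, adjusted p = 0.0176). DB3 was lower than AB by a log2 difference of -0.96 ± 0.236 (limma adjusted p = 0.0302) and did not differ detectably from sDB3 (-0.01 ± 0.236, 95% interval -0.53 to 0.51). The call against sAB ended without AB replicate 3 (0.84, adjusted p = 0.0507, with a range of 0.00899 to 0.0507 over the alternatives).

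Loxl3, a relative that can oxidise both collagen and elastin, had 6.61, 6.17 and 7.23 on AB arrays, against 5.77, 5.86 and 5.57 on sAB arrays. In DB3 it had 5.87, 6.08 and 5.96, against 5.70, 5.75 and 5.64 in sDB3. The AB arrays were spread more widely than those of any other group (SD 0.532, against at most 0.147). AB was 1.91-fold above sAB (log2 difference 0.93 ± 0.206, SE, limma adjusted p = 0.0102) and 1.96-fold above sDB3 (0.97 ± 0.206, adjusted p = 0.00928). All DB3 arrays lay above all sDB3 arrays and below all AB arrays, yet neither DB3 against sDB3 (0.27 ± 0.206, adjusted p = 0.434) nor DB3 against AB (-0.70 ± 0.206, adjusted p = 0.0594) passed. With only the AB and sAB arrays in the fit, the adjusted p for AB against sAB was 0.0524, the highest of its range (0.00267 to 0.0524).

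Lox itself, the founding member of the family, was the most variable of the 9. Its signals were 6.68, 7.11 and 7.90 in AB, against 5.81, 6.03 and 7.54 in sAB. They were 5.65, 6.91 and 5.88 in DB3, against 6.09, 5.88 and 5.48 in sDB3. A single sAB array, replicate 3, and a single DB3 array, replicate 2, stood above the rest of their groups. Lox differed by 0.77 ± 0.479 between AB and sAB (log2, SE, limma adjusted p = 0.289) and by 1.41 ± 0.479 between AB and sDB3 (adjusted p = 0.0574), and neither passed. Without sAB replicate 3 the difference from sAB was 1.31 (adjusted p = 0.0539, with a range of 0.0539 to 0.639 over the alternatives).

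The same arrays were high for other matrix genes. The fibrillar collagen gene Col3a1 was at 13.64 on sAB replicate 3, against 12.13 and 12.51 on the other sAB arrays, and at 13.13 on DB3 replicate 2, against 11.65 and 12.16 on the other DB3 arrays. Fn1, fibronectin, was at 9.44 on sAB replicate 3, against 7.83 and 8.15. The summed signal of 11 tested macrophage markers was 13.95 on sAB replicate 3, against 12.88 and 13.26 on the other sAB arrays. It was 12.93 on DB3 replicate 2, the lowest of that group (12.96 and 13.06 on the others). The summed fibroblast signal was 15.62 on sAB replicate 3, against 15.32 and 15.42 on the other sAB arrays. On DB3 replicate 2 it was 15.64, against 15.51 and 15.61 on the other DB3 arrays. The part of these genes in the Lox values was not tested. A dim probe set of Lox, 1448228_at, read 4.09 on AB replicate 3 and 4.26 on sAB replicate 3, and another, 1437903_at, lay at the floor of 2.23 on all arrays.

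Among the prolyl hydroxylases, P3h2 had the smallest adjusted p of the 9 genes against both shams. It encodes prolyl 3-hydroxylase 2, which acts mainly on basement membrane collagen. Its signals were 6.10, 6.20 and 6.50 in AB, against 5.08, 5.19 and 5.15 in sAB. In DB3 they were 5.52, 5.68 and 5.70, against 5.08, 5.03 and 5.12 in sDB3. The 3 levels did not overlap: AB lay on top, DB3 below it and both shams at the bottom. P3h2 was 2.18-fold higher in AB than in sAB (log2 difference 1.13 ± 0.097, SE, n = 3 arrays each, with a limma adjusted p = 6.93e-05) and 2.28-fold higher than in sDB3 (1.19 ± 0.097, adjusted p = 0.000211). The shams differed by -0.06 ± 0.097 (sDB3 minus sAB, 95% interval -0.28 to 0.15).

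At 3 days after debanding P3h2 was still 1.47-fold above its sham (DB3 against sDB3, 0.56 ± 0.097, limma adjusted p = 0.0171) and at 0.64 of the level in AB (-0.63 ± 0.097, adjusted p = 0.00412). The excess over sham was larger in AB than in DB3 by 0.57 ± 0.137 (adjusted p = 0.0393). The calls against sAB, against sDB3 and between DB3 and AB held under all 21 alternatives. That of DB3 against sDB3 ended with only those 6 arrays in the fit (adjusted p = 0.0784, with a range of 0.0118 to 0.0784), and the difference of the effects passed in 6 of 20 alternatives (adjusted p between 0.0242 and 0.0772).

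P4ha1 and P4ha2 encode alternative catalytic alpha subunits of prolyl 4-hydroxylase, the enzyme that makes most of the hydroxyproline in collagen. P4ha1 had 8.72, 9.13 and 9.04 in AB, against 8.25, 8.54 and 8.40 in sAB. It had 8.52, 8.38 and 8.64 in DB3, against 8.22, 7.91 and 8.20 in sDB3. AB lay above the other groups without overlap, DB3 overlapped sAB, and sDB3 was lowest. The rise in AB was 1.48-fold over sAB (log2 difference 0.57 ± 0.129, SE, limma adjusted p = 0.0124) and 1.81-fold over sDB3 (0.86 ± 0.129, adjusted p = 0.00208). In DB3 the difference from sDB3 was 0.41 ± 0.129 and did not pass (adjusted p = 0.0843). It was 0.31 after quantile normalization and 0.29 after median centring (limma adjusted p = 0.197 in both). The call against sAB ended without AB replicate 2 (adjusted p = 0.0538) and without AB replicate 3 (adjusted p = 0.0515, with a range of 0.00641 to 0.0538).

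P4ha2 did not pass against sAB. Its signals were 9.43, 9.50 and 9.45 in AB, against 9.28, 9.36 and 9.29 in sAB. In DB3 they were 9.26, 9.17 and 9.58, against 9.19, 8.96 and 9.02 in sDB3. The AB arrays lay just above the sAB arrays, and the difference of 0.15 ± 0.102 did not pass (limma adjusted p = 0.336). Against sDB3, the lowest group, AB was 1.32-fold higher (0.40 ± 0.102, limma adjusted p = 0.0191). DB3 and sDB3 overlapped (0.28 ± 0.102, limma adjusted p = 0.122).

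With entries from RefSeq's promoter table (GRCm38.p6), promoters were examined for only 4 of the genes, P4ha1, P4ha2, Plod1 and Plod3. Their 250 bases before the annotated start are shown. These genes were taken for their entries and not for their values. Among them P4ha1 and Plod3 passed as higher in AB against sAB, and P4ha2 and Plod1 did not. P4ha1, P4ha2 and Plod2 are known targets of hypoxia-inducible factors, whose core motif is ACGTG or GCGTG. Capitals mark each match on either strand (CACGT and CACGC are the reverse strand), and no matches overlapped. The sequences run 5′ to 3′ along the gene's strand. P4ha1 lies at chr10:59323046-59323295 (plus strand), P4ha2 at chr11:54100674-54100923 (plus), Plod3 at chr5:136986769-136987018 (plus) and Plod1 at chr4:147936777-147937026 (minus).
P4ha1: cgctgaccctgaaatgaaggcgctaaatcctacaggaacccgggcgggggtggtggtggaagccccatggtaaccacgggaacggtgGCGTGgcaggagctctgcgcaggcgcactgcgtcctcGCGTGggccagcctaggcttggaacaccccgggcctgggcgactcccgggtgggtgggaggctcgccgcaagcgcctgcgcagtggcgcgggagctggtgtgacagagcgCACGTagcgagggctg
P4ha2: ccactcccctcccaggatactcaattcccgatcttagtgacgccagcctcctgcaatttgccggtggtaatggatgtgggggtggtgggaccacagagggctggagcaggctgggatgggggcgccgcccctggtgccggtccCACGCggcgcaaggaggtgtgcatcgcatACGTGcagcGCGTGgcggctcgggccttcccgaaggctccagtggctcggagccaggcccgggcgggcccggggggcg
Plod3: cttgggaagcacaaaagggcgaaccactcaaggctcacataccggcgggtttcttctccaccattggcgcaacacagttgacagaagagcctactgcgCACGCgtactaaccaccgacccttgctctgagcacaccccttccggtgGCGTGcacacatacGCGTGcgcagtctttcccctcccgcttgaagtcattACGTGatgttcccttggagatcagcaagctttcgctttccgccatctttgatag
Plod1: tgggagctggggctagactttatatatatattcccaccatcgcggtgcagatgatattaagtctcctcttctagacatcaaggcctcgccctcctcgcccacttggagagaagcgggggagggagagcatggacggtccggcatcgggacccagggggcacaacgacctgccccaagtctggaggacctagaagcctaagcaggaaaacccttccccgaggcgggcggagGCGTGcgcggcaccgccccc

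P4ha1 and P4ha2 each held 3 matches, Plod3 held 4 and Plod1 held 1. Of all 32851 promoters in the table, 38.6% held at least 1 match in the same window, 16.6% ACGTG and 28.2% GCGTG. The motif ACGTG stood in P4ha1, P4ha2 and Plod3 and not in these 250 bases of Plod1. P4ha1 and P4ha2, with the same number of matches, had log2 differences of 0.57 and 0.15 in AB against sAB. A match is a string of letters and was not tested as a binding site.

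The lysyl hydroxylases differed from sAB by at most 1.44-fold in AB. Plod3, which also carries glycosyltransferase activity toward collagen, had signals of 7.32, 7.39 and 7.46 in AB, against 6.66, 6.85 and 7.10 in sAB. In DB3 they were 7.25, 7.23 and 7.20, against 7.19, 7.19 and 6.92 in sDB3. The groups AB, DB3 and sDB3 were ordered without overlap, and sDB3 overlapped sAB. Plod3 rose 1.44-fold over sAB (log2 difference 0.52 ± 0.111, SE, limma adjusted p = 0.00834), a call that held under all 21 alternatives. Against sDB3 the difference in AB was 0.29 ± 0.111 (limma adjusted p = 0.0823).

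Plod2, the lysyl hydroxylase that acts on the telopeptides of fibrillar collagen, was the only gene of the 9 whose mean was highest in DB3. It had 8.59, 8.54 and 8.79 in AB, against 8.20, 8.21 and 8.37 in sAB. In DB3 it had 8.59, 8.83 and 8.80, against 8.79, 8.67 and 8.38 in sDB3. The sAB arrays lay below the other 9, and AB, DB3 and sDB3 overlapped. Plod2 was 1.30-fold above sAB in AB (0.38 ± 0.115, limma adjusted p = 0.0407) but differed by 0.02 ± 0.115 from sDB3 (95% interval -0.23 to 0.28). The call against sAB ended in 9 of 21 alternatives, with adjusted p between 0.0213 and 0.147. Since sAB is also the group with the deviating BioC signal, its handling and the Plod2 level cannot be told apart.

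Plod1, which hydroxylates lysines of the collagen helix, had 9.59, 9.67 and 9.64 in AB, against 9.32, 9.55 and 9.30 in sAB. In DB3 it had 9.61, 9.34 and 9.52, against 9.49, 9.62 and 9.50 in sDB3. AB and sAB did not overlap, but the difference of 0.24 ± 0.089 did not pass (limma adjusted p = 0.0799). Its largest difference between any pair of groups given here had a 95% interval of 0.05 to 0.44 log2 units. Plod1 and Lox were the genes of the 9 that did not pass the F test over the 4 groups (adjusted p = 0.169 and 0.121), which 37.2% of all genes passed.

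**Figure D2:**
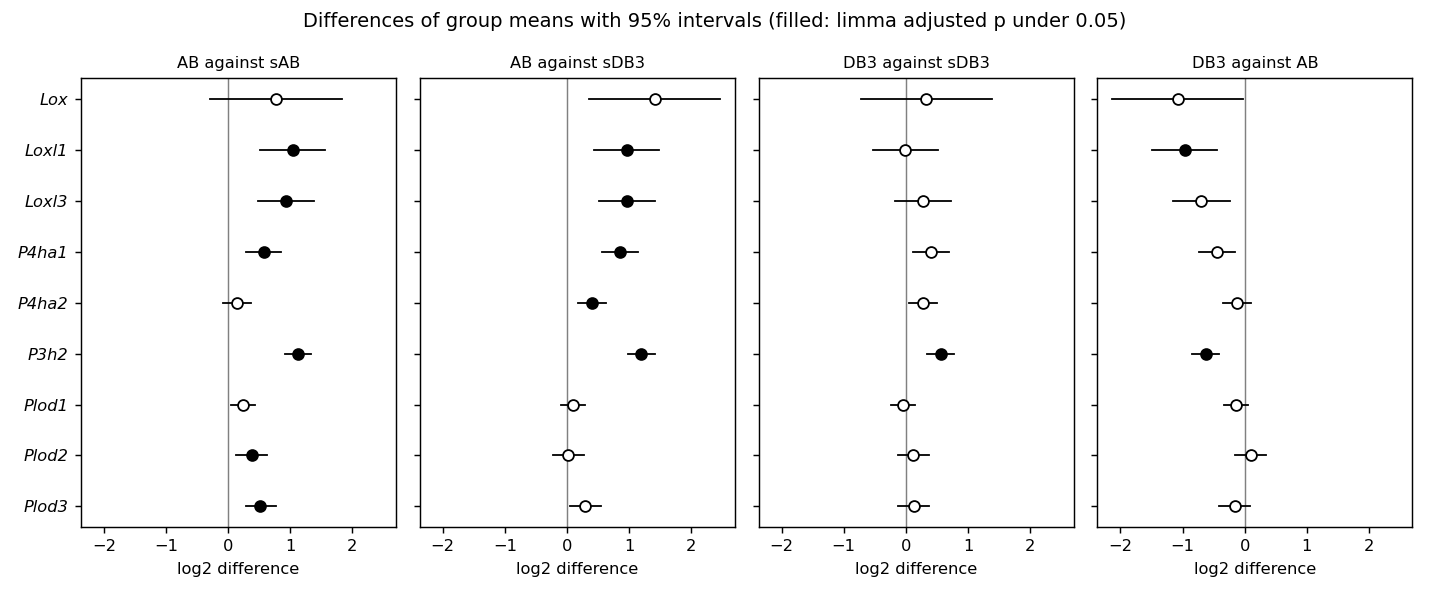
Log2 difference of group means on the x axis, with the 9 genes down the page, for 4 comparisons. Lines are 95% intervals, and filled points have a limma adjusted p under 0.05. P3h2 is filled in all 4 panels and has a narrow interval, while the interval of Lox is the widest in each panel. Intervals come from a spread pooled over the groups, and P3h2 had an SD of 0.205 in AB and at most 0.095 in the other groups.

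By 3 days after the band was removed, the difference from sham was below that at 4 weeks of banding for 8 of the 9 genes (all but P4ha2), although the test of that change passed for P3h2 alone. In DB3 against sDB3 only P3h2 passed, where 6.36% of all genes passed and 5.37% as higher. The median log2 difference of the 9 genes was 0.27, against 0.09 for all genes. At an unadjusted p under 0.05, 3 of the 9 were higher (P4ha1, P4ha2 and P3h2), where 21.2% of all genes were, and adjusted p was 0.0843 for P4ha1 and 0.122 for P4ha2. DB3 and sDB3 did not overlap for Loxl3, P4ha1, P3h2 and Plod3, 4 of 9 genes, a separation that 22.4% of all genes showed in the higher direction. With only these 6 arrays in the fit, limma called 0 of the 9 and 0 of all genes, with 3 of the 9 and 20.5% of all genes at an unadjusted p under 0.05.

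Set against the still banded ventricle, DB3 was lower in Loxl1 and P3h2. These 2 of 9 passed in DB3 against AB, where 5.12% of all genes passed as lower and 9.16% in either direction. Their folds were 0.51 for Loxl1 and 0.64 for P3h2. With every probe set tested on its own, Loxl1 passed on 1451978_at (-0.96, limma adjusted p = 0.0333). It did not pass on its second probe set, 1436063_at (-0.8, limma adjusted p = 0.112). The differences of 8 genes were negative, with a median over the 9 of -0.45, and Plod2 had 0.10 ± 0.115. DB3 and AB did not overlap for Loxl1, Loxl3, P4ha1, P3h2 and Plod3, a separation in the lower direction that 17.6% of all genes showed. The Loxl1 call ended in 7 of 21 alternatives, with adjusted p up to 0.117 (without AB replicate 3, where the difference was -0.76). P4ha1 (-0.45 ± 0.129, limma adjusted p = 0.0549) and Loxl3 lay just outside the threshold, and 4 of 9 passed with trend and robust moderation. Without AB replicate 3, DB3 replicate 1 or DB3 replicate 3, 1 of the 9 passed.

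The effect of banding against its sham was compared directly with the effect 3 days after debanding. This difference of effects passed for 1 of the 9 genes, P3h2, where 6.04% of all genes passed and 2.59% as higher. At an unadjusted p under 0.05 it was positive for Loxl1 (1.05 ± 0.334, adjusted p = 0.0907), Loxl3 (0.66 ± 0.291, adjusted p = 0.194), Plod1, Plod3 and P3h2, 5 of 9 genes, where 8.56% of all genes were positive and 24.2% passed in either direction at that threshold. For P4ha1 (0.16 ± 0.183, 95% interval -0.25 to 0.56) and P4ha2 (-0.13 ± 0.144, 95% interval -0.45 to 0.19) no difference between the effects was detectable. Loxl1 and P4ha1, which both rose in AB against sAB, had DB3 differences from sDB3 of -0.01 and 0.41, and neither passed. On their second probe sets these differences were 0.31 for Loxl1 and 0.23 for P4ha1. The genes were not tested against each other.

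The shams were also set against each other. In sDB3 against sAB, limma called 0 of the 9 genes, with 3 at an unadjusted p under 0.05, 0 in an unmoderated analysis of variance and 1 with trend and robust moderation (Plod2). Of all genes, 17.8% passed in this comparison, and 34.8% had an unadjusted p under 0.05. The 3 genes were Plod2 (0.36 ± 0.115, limma adjusted p = 0.0547), P4ha1 (-0.29 ± 0.129, adjusted p = 0.139) and P4ha2 (-0.25 ± 0.102, adjusted p = 0.104). Both prolyl 4-hydroxylase subunits therefore had their lowest mean in sDB3 and Plod2 had its lowest mean in sAB.

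Over the 4 groups, 8 of the 9 genes had their highest mean in AB, as did 31.5% of all genes tested. Plod2 was the exception. The lowest mean was in sAB for 4 genes (Loxl1, Plod1, Plod2 and Plod3) and in sDB3 for 5 (Lox, Loxl3, P4ha1, P4ha2 and P3h2), groups that held the lowest mean of 23.2% and 42% of all genes. Next to AB in the order came DB3 for Loxl3, P4ha1, P4ha2, P3h2 and Plod3, a sham for Lox (sAB), Loxl1 and Plod1 (sDB3 for both). The arrays of AB and of this next group overlapped for Lox, P4ha2 and Plod1 and not for the other 5. The share of all genes with such a gap below their highest group was not computed, so this count has no comparison.

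**Figure D3:**
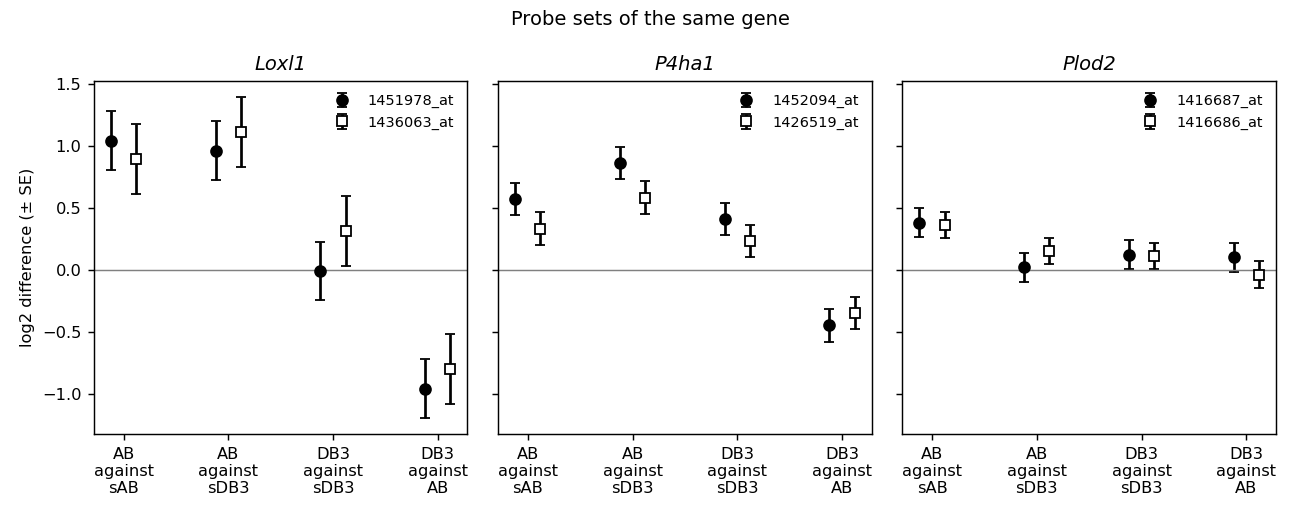
Log2 difference (± SE) on the y axis for 4 comparisons on the x axis, for the 3 genes with more than 1 tested probe set. Filled circles are the probe set that represents the gene, and open squares are the second one. The pairs had the same sign except Loxl1 in DB3 against sDB3 (-0.01 and 0.31) and Plod2 in DB3 against AB (0.10 and -0.04).

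Loxl1, P4ha1 and Plod2 had a second probe set above the dim filter, and these agreed in direction in AB against sAB. With every probe set tested on its own, Loxl1 rose in AB by 1.04 on 1451978_at and by 0.89 ± 0.282 on 1436063_at (limma adjusted p = 0.012 and 0.0494). Plod2 rose by 0.38 on 1416687_at and by 0.36 on 1416686_at (limma adjusted p = 0.0428 and 0.0398). P4ha1 differed between its probe sets: 1452094_at passed at 0.57 ± 0.13 (limma adjusted p = 0.0126), and 1426519_at had 0.33 ± 0.132 and did not pass (adjusted p = 0.109). Against sDB3 both P4ha1 probe sets passed, at 0.86 and 0.58. Lox and Plod1 each had further probe sets only at or near the floor of the scale.

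The genes whose profile lay nearest to each enzyme were sought by the root mean square difference between log2 profiles over the 12 arrays, each gene centred on its own mean. For Loxl1 these were Bgn, the proteoglycan biglycan (0.164 log2 units), Mmp14, a membrane-bound matrix protease (0.171), and Col6a1, a collagen VI chain (0.174), where Loxl1 itself had an SD of 0.53 over the arrays. P3h2 was nearest to Tspan17 (0.125), Cx3cl1 (0.134) and Fxyd6 (0.135), with an SD of 0.51. Cx3cl1, a membrane-bound chemokine, was also nearest to Loxl3 (0.193), before Dpysl3 and Ramp3. P4ha1 was nearest to Zfp697 (0.096), Syk and Amot. P4ha2, Plod2 and Plod3 had smaller SDs over the arrays, of 0.19, 0.23 and 0.23. Their profiles lay within 0.058, 0.104 and 0.073 of Krcc1, Actn4 and Esyt1. These are descriptions of 12 arrays with no test.

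The collagen chains that these enzymes modify were read on the same arrays. Of 21 tested collagen chain genes, 11 rose in AB against sAB, with a median log2 difference of 0.82. Among them Col8a1, a short-chain collagen, rose by 1.86 ± 0.195, Col1a1, a fibrillar chain, by 1.76 ± 0.473, Col15a1 by 1.70 ± 0.154 and Col12a1 by 1.5 ± 0.414 (limma adjusted p at most 0.0283). In the unmoderated analysis 7 of the 21 passed, and Col1a1 (adjusted p = 0.0601) and Col12a1 (0.0652) did not. Against sDB3, 13 of the 21 passed as higher in AB, with a median of 0.97. Col1a1 did not pass there (1.19 ± 0.473, limma adjusted p = 0.0958). Col15a1 had 0.97 ± 0.154 against sDB3 and was also higher in sDB3 than in sAB (0.73 ± 0.154, limma adjusted p = 0.012). Of the 21, limma called 0 in DB3 against sDB3, with 1 at an unadjusted p under 0.05 and 0 in the unmoderated analysis and with trend and robust moderation. The median there was 0.00, and 12 chains were lower in DB3 than in AB.

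Elastic fibre genes, whose protein elastin is the other substrate of lysyl oxidases, rose in 4 of 9 tested cases in AB. They were Ltbp4 (1.09 ± 0.071), Fbln2 (1.04 ± 0.173), Eln, elastin (1.02 ± 0.315), and Emilin1 (0.85 ± 0.204), with limma adjusted p at most 0.0443. In the unmoderated analysis the Eln call ended (adjusted p = 0.0893). Against sDB3, 6 of the 9 passed as higher in AB, with a median of 1.07. Eln was not among them (0.96 ± 0.315, limma adjusted p = 0.0514), and Ltbp4 had 0.38 ± 0.071 (adjusted p = 0.00535). Ltbp4 also differed between the shams, by 0.71 ± 0.071 in sDB3 against sAB (limma adjusted p = 0.000312). The list had a median of 0.52 in DB3 against sDB3 and 2 of 9 passed. Ltbp4 was among these (0.30 ± 0.071, limma adjusted p = 0.0392), a call that ended after quantile normalization (0.0764) and median centring (0.17), and Eln differed by -0.36 ± 0.315 (adjusted p = 0.5).

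The relatives and direct partners of the enzymes included few that passed. Of 9 tested relatives and partners, P3h3, a prolyl 3-hydroxylase relative, was the single one that passed in AB against sAB (1.02 ± 0.153, limma adjusted p = 0.00156), and the list's median was 0.18. P4hb, the beta subunit that P4ha1 and P4ha2 need, differed by 0.18 ± 0.07 (adjusted p = 0.0921). Crtap and P3h1, which form the prolyl 3-hydroxylase 1 complex, each differed by 0.20. In DB3 against sDB3 limma called 0 of these 9, with 1 at an unadjusted p under 0.05 and 0 in the unmoderated analysis and with trend and robust moderation. Of 11 chaperone, export and propeptide processing genes, Sparc, a collagen-binding matricellular protein (0.65 ± 0.13, adjusted p = 0.00622), and Pcolce2, an enhancer of propeptide cleavage (0.39 ± 0.12, adjusted p = 0.0414), rose in AB. Pcolce2 had 0.45 ± 0.12 in DB3 against sDB3 (limma adjusted p = 0.0498). Both Pcolce2 calls ended after quantile normalization (adjusted p = 0.0573 against sAB and 0.129 against sDB3), median centring (0.065 and 0.133) and in the unmoderated analysis (0.0676 and 0.0799). Serpinh1, the collagen chaperone, differed by 0.15 ± 0.082 in AB (adjusted p = 0.21).

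Genes of TGF-beta signalling, which is known to raise lysyl oxidase and collagen expression, rose in 6 of 9 tested cases in AB against sAB. Their median was 0.98, and 12% of all genes passed as higher. The part of TGF-beta signalling and of hypoxia in the enzyme values was not tested. Ltbp2, a relative of the proteins that hold latent TGF-beta in the matrix, was higher by 2.37 ± 0.34, the ligand gene Tgfb2 by 2.14 ± 0.203, Ccn2 by 2.13 ± 0.34 and Postn by 1.91 ± 0.337 (limma adjusted p at most 0.00351). In DB3 against sDB3 1 of the 9 passed, with a median of 0.38. The hypoxia-responsive genes had a median of 0.00 in AB against sAB, with 1 of 18 higher and 1 lower. Slc2a1, a glucose transporter, was the higher one (0.50 ± 0.117, limma adjusted p = 0.0142). In DB3 against sDB3 Pfkfb3 (0.96 ± 0.161) and Bnip3 (0.42 ± 0.085) were higher, and Vegfa, the vascular growth factor, was lower (-0.57 ± 0.14), with limma adjusted p at most 0.0423. The Vegfa call ended after quantile normalization (adjusted p = 0.0541) and in the unmoderated analysis (0.0725), and the Bnip3 call after median centring (0.0738).

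**Figure D4:**
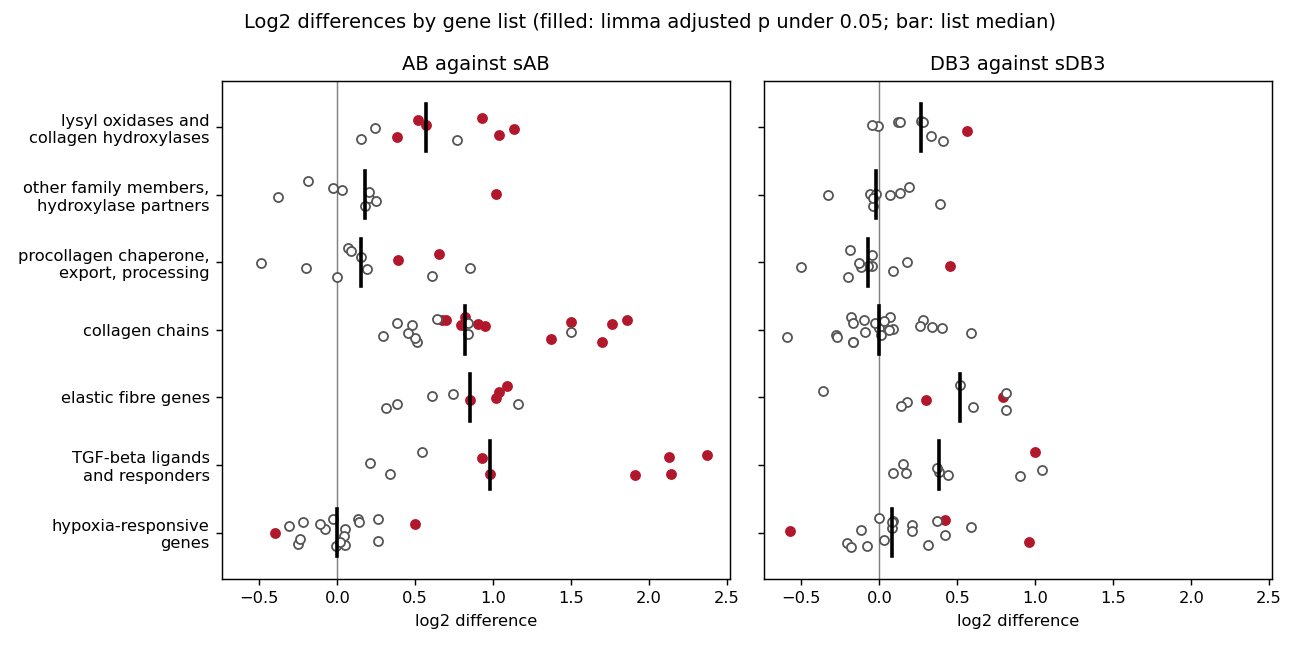
Log2 difference on the x axis for each tested gene of 7 lists, in AB against sAB on the left and DB3 against sDB3 on the right. Filled points have a limma adjusted p under 0.05, and vertical bars are list medians. The enzymes have a median of 0.57 on the left and 0.27 on the right, and the collagen chains have 0.82 and 0.00.

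Markers of the cells that could supply these transcripts were read on the same arrays. Of 12 fibroblast markers, 1 rose in AB against sAB (Pdgfra, 0.43 ± 0.133, limma adjusted p = 0.0448, and 0.0755 in the unmoderated analysis), and their summed log2 signal overlapped, at 15.35 to 15.50 in AB and 15.32 to 15.62 in sAB. Of 12 endothelial markers, 3 rose, and the sums did not overlap (13.22 to 13.32 in AB, 13.04 to 13.12 in sAB). Of 10 smooth muscle and pericyte markers, 4 rose, with sums of 15.12 to 15.27 in AB and 14.80 to 14.91 in sAB. That list holds Des, which cardiomyocytes express too and which rose by 0.76. The macrophage sums overlapped (12.90 to 13.11 in AB, 12.88 to 13.95 in sAB). Of 11 macrophage markers Cx3cr1 rose (0.91 ± 0.159, limma adjusted p = 0.00325), and the other 10 had negative differences that did not pass (-0.56 for Cd163 to -0.22 for Fcgr1).

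Against sDB3, 4 of 12 fibroblast markers were higher in AB (Ddr2, Mfap5, Pi16 and Fap), 10 of 12 were positive, and their median was 0.54. Their sums were 15.35 to 15.50 in AB and 15.28 to 15.34 in sDB3. Of 12 endothelial markers 7 were higher, among them Cldn5 (1.39 ± 0.274) and Tie1 (0.53 ± 0.099, limma adjusted p at most 0.00684), all 12 were positive, and sums were 13.22 to 13.32 in AB and 12.88 to 13.01 in sDB3. After quantile normalization 1 fibroblast and 3 endothelial markers passed as higher, and after median centring 1 and 2 did, with 1 fibroblast marker lower. Of 10 smooth muscle and pericyte markers 3 were higher (Cspg4, 0.85, Pdgfrb, 0.56, and Des, 0.30), as were 3 after quantile normalization and 2 after median centring. Of 11 macrophage markers Cx3cr1 was higher (1.02), and 2 of 10 cardiomyocyte markers were lower.

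In DB3 against sDB3, 2 of 12 fibroblast markers passed (Dcn, 0.41, and Gsn, 0.27), and their sums were 15.51 to 15.64 in DB3 and 15.28 to 15.34 in sDB3. The Dcn call ended after quantile normalization (adjusted p = 0.0782), and both ended after median centring (0.104 for Dcn and 0.159 for Gsn). The smooth muscle and pericyte sums were 15.13 to 15.21 in DB3 and 14.89 to 15.12 in sDB3. Cardiomyocyte sums were lower in AB (18.75 to 18.82, against 18.83 to 18.86 in sAB) and in DB3 (18.80 to 18.81, against 18.88 to 18.92 in sDB3). Of the 10 markers, limma called 0 lower in AB against sAB and 1 higher (Mybpc3, 0.36, adjusted p = 0.0067). It called 0 in DB3 against sDB3. At an unadjusted p under 0.05, 2 were lower in AB and 3 in DB3. The list medians were -0.04 and -0.09. Atrial transcripts were present and uneven. Myl7, an atrial myosin light chain, ranged over 9.41 to 11.94 in AB and 6.96 to 9.32 in sAB, and over 4.67 to 12.72 in DB3 and 10.11 to 12.97 in sDB3. The differences of Myl4, Myl7 and Sln were 1.97, 2.47 and 3.15 in AB against sAB and -2.57, -2.88 and -2.31 in DB3 against sDB3, and none passed (limma adjusted p at least 0.217). Nppa, the natriuretic peptide that loaded ventricles also express, rose by 2.39 ± 0.158 in AB against sAB and by 0.91 ± 0.158 in DB3 against sDB3 (limma adjusted p = 1.38e-05 and 0.0171). With Nppa included, atrial sums were 15.16 to 15.50 in AB and 12.85 to 12.98 in sAB, and 13.73 to 14.90 in DB3 and 13.43 to 14.59 in sDB3. The atrial gene Bmp10 did not pass the dim filter.

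Of 6 epicardial and mesothelial markers 3 were tested. Upk3b was at 2.34 to 5.08 in DB3 and at 2.23 to 2.34 in AB (difference 1.87 ± 0.694, limma adjusted p = 0.123), and at 2.34 to 4.64 in sDB3. Their sums were 4.66 to 5.23 in AB and 4.63 to 4.72 in sAB, and 4.84 to 6.14 in DB3 and 4.64 to 5.48 in sDB3. Msln, Krt19 and Lrrn4 did not pass the dim filter. The 2 tested blood markers, Alas2 and Slc4a1, summed to 8.35 to 9.55 in DB3 and 7.63 to 8.03 in AB, without overlap, and to 7.65 to 9.21 in sDB3 and 7.60 to 8.26 in sAB. The part of these cell types in the enzyme values was not tested.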

How the data were processed

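Biotin-labelled cRNA from 3 µg of total RNA of 12 left ventricles was hybridised to Affymetrix arrays, per the labels' protocols. The deposited values are log2 signals of 45101 probe sets made with GCRMA, per the submitters' processing notes; its settings were not given in the sources used here. They were used without further normalization. Probe sets carry 1 symbol (34945), several (932) or none (9160), and 64 are controls. Symbols were updated by gene ID (34741 found), and probe sets with any other number of symbols were dropped. The dim filter kept probe sets that exceeded log2 4 on 3 or more arrays (17817), and the one with the highest mean represented the gene (10435 genes). 

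Differences were fitted with limma 3.58.1 in R 4.3.3 (lmFit, eBayes) in 1 model of the 4 groups, following the series' analysis of variance with sham as control (8 residual and 2.68 prior degrees of freedom). P-values are two-sided and Benjamini-Hochberg adjusted over all genes, and called under 0.05. With 3 arrays a side, the smallest p of an exact permutation test is 0.1. The labels say neither more of the mice nor of batches, so neither entered the model. The p-values set a group difference against the spread between these samples within groups, pooled over the 4 groups. The fit was tested on simulated data. Replicate numbers follow accession order and pair nothing. The enzymes, the other gene lists and the comparison of AB with sDB3 were chosen with earlier results of these data known. All enzymes are named, as are up to 4 genes of each other list with the largest differences among those past the threshold in AB against sAB or DB3 against sDB3, and the 3 genes nearest in profile. Other genes, among them P4hb, Crtap, P3h1, Serpinh1, Col3a1 and Fn1, were named after their values were seen. Alternatives were the dim filter, the choice of probe set, scaling, moderation, the groups in the fit and leaving out each array.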

Additional observations from a re-analysis of the deposited data

Results flagged for a closer look

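P3h2 differed between the banded and the debanded ventricle in its excess over sham. The log2 difference was 1.13 in AB against sAB and 0.56 in DB3 against sDB3, and the test of the difference of these effects gave 0.57 ± 0.137 (SE, limma adjusted p = 0.0393). All 3 AB arrays lay above all sAB arrays, and all 3 DB3 arrays above all sDB3 arrays. The call passed in 6 of 20 alternatives, with adjusted p between 0.0242 and 0.0772. Groups of 3 arrays are too small for a search for single outlying arrays.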

How the results depend on the processing

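Across 54 values (9 genes in 6 comparisons) and up to 21 alternative settings, 1046 of 1125 recomputed values kept their direction and their side of the threshold. Of 15 called values, 6 stayed called under all settings run and none changed sign. The others lost their call in at least 1 setting, as given above for each gene, and Loxl1 in AB against sDB3 lost it in 3 of 21 (adjusted p up to 0.071). The 17 changes of sign were all in values that had not passed. With the mean of probe sets Loxl1 turned to 0.15 in DB3 against sDB3 and to -0.07 in sDB3 against sAB. In sDB3 against sAB, quantile normalization gave Loxl3 0.03 and P3h2 0.01, and median centring gave 0.05 and 0.02. In AB against sDB3, Plod2 turned to -0.08 with quantile normalization and -0.10 with median centring, and Plod1 to -0.03 with median centring. Leaving out single arrays gave ranges across zero in DB3 against sDB3 for Lox (-0.05 to 0.57), Loxl1 (-0.16 to 0.14) and Plod1 (-0.11 to 0.03), in AB against sDB3 for Plod2 (-0.09 to 0.11) and in sDB3 against sAB for Loxl1 (-0.15 to 0.27) and Loxl3 (-0.12 to 0.03). The cause was not tested.

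The genes described that passed in the difference of effects numbered 0, in place of 1, with no dim filter, with trend and robust moderation and in the unmoderated analysis of variance. In DB3 against AB 1 passed in place of 2 with no dim filter, in the unmoderated analysis and with only the groups compared, and 4 passed with a filter at log2 6 and with trend and robust moderation. In sDB3 against sAB 1 passed in place of 0 with the filter at log2 6, both other scalings, and trend and robust moderation. In DB3 against sDB3 0 passed in place of 1 with only the groups compared.

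Over all genes, the 664 calls in DB3 against sDB3 became 323 with no dim filter, 199 with quantile normalization, 422 with median centring, 427 in the unmoderated analysis and 0 with only the groups compared (limma, 2137 at an unadjusted p under 0.05). The difference of effects had 630 calls, and 338 with no dim filter. With only the groups compared sDB3 against sAB had 571 in place of 1861 calls and DB3 against AB had 629 in place of 956.

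Scaling moved the split of calls. Higher and lower calls numbered 1256 and 802 in AB against sAB (1105 and 1058 after quantile normalization, 1054 and 1135 after median centring), and 560 and 104 in DB3 against sDB3 (107 and 92, 137 and 285). They numbered 1809 and 489 in AB against sDB3 (918 and 726, 825 and 1119), 270 and 360 in the difference of effects (344 and 229, 387 and 173) and 573 and 1288 in sDB3 against sAB (712 and 735, 879 and 611). Median centring moved the median of all genes to -0.025 in place of 0.091 in DB3 against sDB3, and to -0.021 in place of 0.108 in AB against sDB3.

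Leaving out 1 array at a time gave 1139 to 2119 calls in AB against sAB, 170 to 535 in DB3 against sDB3, 152 to 567 in the difference of effects, 967 to 1945 in sDB3 against sAB, 365 to 1031 in DB3 against AB and 1124 to 2354 in AB against sDB3. Among the 9 genes it gave 3 to 6, 1 to 1, 0 to 1, 0 to 1, 1 to 3 and 3 to 7 calls in the same order of comparisons. No paired analysis was possible because the labels give the arrays no shared replicate numbers. With 3 arrays a group, Lox (SE 0.479) could hide differences that would pass for P3h2 (SE 0.097), and signals near the floor of 2.23 have no order.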

Other observations

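Among the enzymes themselves, profiles centred on each gene's mean lay nearest for Plod2 and Plod3 (root mean square difference 0.146 log2 units over 12 arrays), Plod1 and Plod3 (0.184), and P4ha2 and Plod1 (0.194), all genes of small range. Of the genes with a wider range, Loxl3 and P3h2 were nearest (0.217), and P4ha1 and P3h2 came next (0.24). Loxl1 lay 0.298 from Loxl3 and 0.45 from Lox. Postn had signals of 11.92, 12.75 and 13.08 in AB, against 10.22, 10.74 and 11.06 in sAB. Like Lox, it was highest on AB replicate 3 among the AB arrays and on sAB replicate 3 among the sAB arrays.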
